A study of Mus musculus with 5 samples.

Results

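The genes described here are p53, encoded by Trp53, its inhibitors Mdm2 and Mdm4, and the p53 target genes Ccng1, Plk2, Gadd45a, Gadd45b, Bbc3, Zmat3 and Sesn2. These 10 genes were taken by symbol from the 33894 genes of the deposited count tables. All 10 passed the filter on low counts, as did 13696 genes in all. Their RNA was sequenced in bulk from haematopoietic stem cells of mouse bone marrow, which were sorted for a high level of c-Kit and for Sca1, without lineage markers and without surface CD34 and Flt3. Of the 5 libraries, 2 came from 8-week-old mice labelled WT and 3 from mice of the same age labelled dKO, which carry Vav-cre and floxed copies of both target genes (Lrp5 fl/fl and Lrp6 fl/fl). Vav regulatory elements drive Cre in blood cells, where it is meant to remove the Wnt co-receptors Lrp5 and Lrp6. The labels name no Cre and no floxed allele for WT, so Cre and the loss of the genes cannot be told apart. Nothing in them ties a library to a mouse of its own, so the p-values reflect the spread between these libraries, which may be technical.

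Libraries held between 16028512 and 28027458 counts, the fewest in dKO replicate 2. That library also lost more genes: of those with at least 10 counts in every other library, 4.82% had 0 counts in it, against 0.0566% to 0.309% in the other 4 libraries. Lrp6 ranged from 9.29 to 25.1 CPM (counts scaled to library size, with TMM) in WT and from 15.7 to 29.1 CPM in the libraries labelled dKO. Lrp5 ranged from 0.266 to 1.28 and from 0.121 to 2.63 CPM. Counts summed over all exons would not reveal that one was deleted, so the genotype rests on the labels. Stem cell markers summed to 2895 and 1898 CPM in WT and to between 3310 and 3315 CPM in dKO, with 14 of 14 genes detected well enough to be tested. That list holds Cd34 and Flt3, whose surface proteins the sort excludes. Without them it summed to 1446 and 1021 CPM in WT and to between 1867 and 2042 CPM in dKO. Flt3 RNA measured 238 and 116 CPM in WT and 338, 300 and 360 CPM in dKO.

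p53 is a transcription factor that is held at a low level by Mdm2, a ubiquitin ligase that marks it for degradation, and by the related protein Mdm4, which mainly blocks its activity. DNA damage and other stresses release p53 from both, and it then switches on genes that stop the cell cycle, repair DNA or kill the cell. Mdm2 is itself such a target, which closes a feedback loop. In haematopoietic stem cells p53 is known for its part in keeping the cells quiescent and in removing damaged cells.

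RefSeq promoter windows of build GRCm38.p6, from 250 bases before to 50 bases after a transcription start, were at hand for 9 of the 10 genes, all but Zmat3, with 12 windows in all. They were searched on both strands for the p53 decamer consensus, which reads the same on both strands and of which a full p53 site holds a pair. It matched in 4 of the 12 windows (33.3%), and in 8.36% of 32841 windows of all genes. The 4 matches are printed because they show which members carry the letters of the factor's own consensus close to a start. Capitals mark the decamer and each sequence reads 5′ to 3′ on the gene's strand.
Trp53: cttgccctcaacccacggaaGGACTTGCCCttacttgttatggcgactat
Mdm2: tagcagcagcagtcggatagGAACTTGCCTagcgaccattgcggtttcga
Ccng1: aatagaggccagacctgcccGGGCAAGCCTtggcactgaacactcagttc
Gadd45a: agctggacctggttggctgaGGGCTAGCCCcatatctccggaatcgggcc
These stretches lie at chr11:69580264-69580313 on the plus strand, chr10:117710915-117710964 on the minus strand, chr11:40755442-40755491 on the minus strand and chr6:67037418-67037467 on the minus strand. Their decamers begin 75, 186, 185 and 40 bases before the start. The counts were made on another build, mm9, so these positions belong to the sequences alone.

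Plk2 has no p53 decamer in its window. It holds a cAMP response element, TGACGTCA, which was searched for after matches to the core TGACG had been seen. That core matched in 3 of the 12 member windows (25.0%) and in 20.8% of all windows. The full 8 bases occur in 1 of the 12 member windows and in 1.79% of all windows. In the lists of arrest, death, repair and feedback targets they were found in 2 of 12, 0 of 12, 0 of 15 and 1 of 11 windows. The genes are Btg2, Trp53inp2 and Ppm1d, and Btg2 is shown beside Plk2 as the one measured at the highest level. Cdkn1a has no such element and holds p53 decamers 73 and 51 bases before a start.
Plk2: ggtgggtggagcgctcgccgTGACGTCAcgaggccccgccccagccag
Btg2: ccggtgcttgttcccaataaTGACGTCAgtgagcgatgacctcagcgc
The stretches lie at chr13:110394962-110395009 on the plus strand and chr1:134079294-134079341 on the minus strand, and the capitals begin 62 and 166 bases before the start. The AP-1 consensus TGANTCA occurs in 7.81% of all windows and in 1 window of the members, for Mdm4. A match or its absence describes these letters only and says nothing of binding.

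Across the members, Plk2 was the gene that differed most between the groups, at about 4 times its WT level in the libraries labelled dKO. Mdm2 lay somewhat higher and Trp53 somewhat lower there, each without overlap of the groups on the CPM scale. The other 7 genes overlapped. Of all genes tested, 13.7% lay above WT in every dKO library on that scale and 15.6% below. No member passed the adjusted threshold: edgeR's quasi-likelihood test called 0 of the 10 members and 0% of all genes tested in either direction. At an unadjusted p under 0.05, 1 member was higher, Plk2, and 0 were lower, where 4.94% of all genes were higher and 5.19% lower. DESeq2 called Plk2 higher and no other member, beside 1.18% of all genes called higher and 0.672% lower. Limma-voom called 0 members and 0 of all genes tested in either direction.

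**Figure D1:**
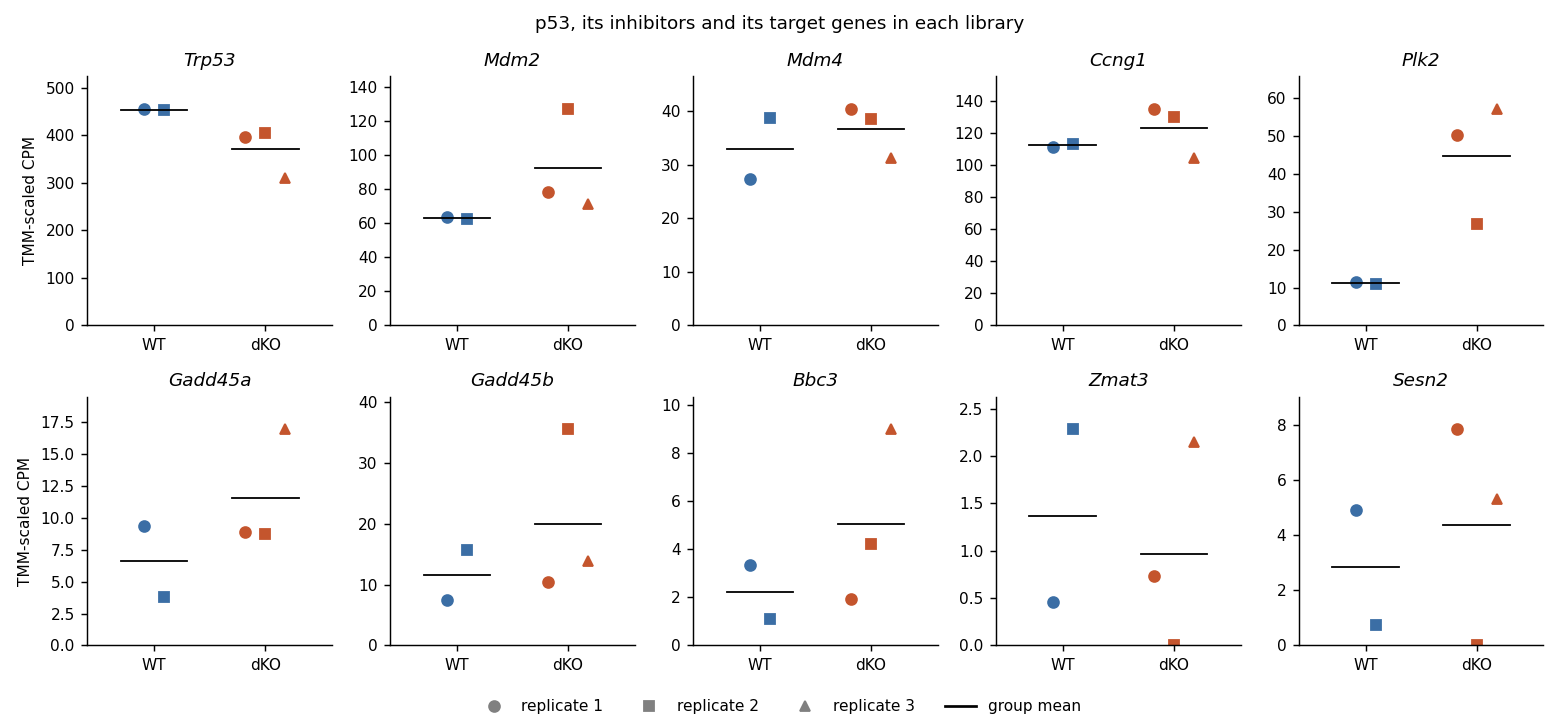
TMM-scaled CPM of each of the 10 genes (vertical axes, linear, each from 0) in the 2 WT and 3 dKO libraries, with 1 point per library and a bar at the group mean. Plk2 and Mdm2 lie above both WT libraries in all 3 dKO libraries and Trp53 lies below them, while the other 7 genes overlap. Of all genes tested, 13.7% lie above WT in this way and 15.6% below.

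Trp53 measured 456 and 453 CPM in WT replicates 1 and 2 and 398, 406 and 311 CPM in dKO replicates 1, 2 and 3. All 3 dKO libraries lay below both WT libraries, which were nearly equal, and dKO replicate 3 was the lowest. The log2 fold change was -0.29 (SE 0.19, 95% interval -0.73 to 0.14, edgeR adjusted p = 0.657). On the deposited TPM scale (transcript levels corrected for library size and transcript length), Trp53 stood at 311 and 352 TPM in WT and at 385, 370 and 269 TPM in dKO. There the groups overlapped and the log2 fold change, on log2(TPM + 1), was 0.03, with a median over all genes of 0.15 against 0.04 for the CPM-based fit. The lower value of Trp53 in dKO is therefore seen in the counts and not in the TPM values. Trp53-ps, a pseudogene that is 94.9% identical to Trp53 over 1090 bases, had 0 counts in every library.

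The genes whose profile over the 5 libraries was closest to that of Trp53, among 8798 others with a mean of at least 10 CPM, were Morc3, Topors and Aldh7a1. Their root mean square distances from it, in log2 CPM centred on each gene's mean, were 0.0303, 0.0396 and 0.0460. Mdm2 stood at a distance of 0.44 from Trp53. The neighbours of Mdm2 itself were Strn4, 0610030E20Rik and Sp3, at 0.0356, 0.0635 and 0.0636. With 5 libraries these distances are a description of shape.

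Mdm2, the ligase that degrades p53 and a p53 target, measured 63.5 and 62.6 CPM in WT and 78.2, 127 and 71.2 CPM in dKO replicates 1, 2 and 3. Every dKO library lay above the WT libraries, most of all dKO replicate 2. The log2 fold change was 0.55 (SE 0.31, 95% interval -0.18 to 1.27, edgeR adjusted p = 0.597), and it was 0.25 without dKO replicate 2. In TPM the values were 31.2 and 27.4 in WT and 47.0, 84.2 and 35.5 in dKO, again without overlap.

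Mdm4, the inhibitor related to Mdm2, measured 27.2 and 38.7 CPM in WT and 40.4, 38.6 and 31.2 CPM in dKO. The groups overlapped, and the WT libraries spanned nearly the whole range. Mdm4 had a log2 fold change of 0.16 (SE 0.34, 95% interval -0.62 to 0.94, edgeR adjusted p = 0.940) and -0.08 without WT replicate 1. Counts of Mdm4 could be shared with its pseudogene Mdm4-ps, which is 94.1% identical over 4184 bases and had 28 to 137 counts per library, against 638 to 1095 for Mdm4.

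Within a library, the counts of one gene relative to another do not depend on the scaling. These ratios were chosen after the values had been seen. Mdm2 had 0.139 and 0.138 counts per count of Trp53 in the WT libraries and 0.197, 0.313 and 0.229 in dKO replicates 1, 2 and 3. The mean ratio was 0.246 ± 0.0598 in dKO (SD, n = 3) and 0.139 ± 0.000761 in WT (SD, n = 2), a 1.77-fold difference. Ccng1 relative to Trp53 stood at 0.244 and 0.250 in WT and at 0.340, 0.320 and 0.336 in dKO, a 1.34-fold difference with little spread in either group. Mdm4 relative to Trp53 stood at 0.0598 and 0.0853 in WT and at 0.1015, 0.0950 and 0.1004 in dKO. For all 3 genes, the ratio in every dKO library was higher than in either WT library, but so it was for 24.1% of the 13695 other genes tested. Trp53 itself was lower in the dKO counts, and the median fold of the ratio over those genes was 1.27, close to the values of Ccng1 and Mdm4 (1.36). In TPM the ratio of Mdm2 to Trp53 was 0.1005 and 0.0779 in WT and 0.122, 0.227 and 0.132 in dKO, and that of Ccng1 to Trp53 0.179 and 0.140 in WT and 0.194, 0.192 and 0.192 in dKO. Both stayed apart on this scale, as did 15.5% of the other genes, whereas the TPM ratio of Mdm4 to Trp53 overlapped, at 0.0486 and 0.0690 in WT and 0.0527, 0.0909 and 0.0637 in dKO.

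**Figure D2:**
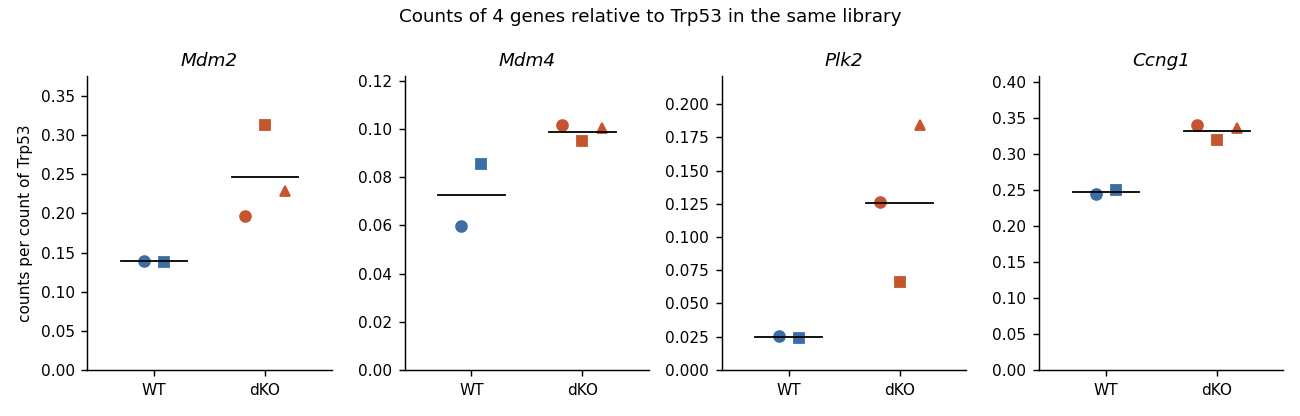
Counts of Mdm2, Mdm4, Plk2 and Ccng1 divided by the counts of Trp53 in the same library (vertical axes, linear, from 0), by group. Circles, squares and triangles are replicates 1, 2 and 3 and bars are group means. For each of the 4 genes the 3 dKO ratios lie above both WT ratios, as they do for 24.1% of other genes, from 0.320 to 0.340 against 0.244 and 0.250 for Ccng1.

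Among the targets that act on the cell cycle, Ccng1 encodes cyclin G1, a p53 target that recruits a phosphatase to Mdm2. It measured 111 and 113 CPM in WT and 135, 130 and 105 CPM in dKO. Replicates 1 and 2 of dKO lay above WT and replicate 3 below. Ccng1 had a log2 fold change of 0.13 (SE 0.22, 95% interval -0.37 to 0.63, edgeR adjusted p = 0.911). Its interval was among the narrowest of the members and ended below a 2-fold change on either side.

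Plk2 encodes a polo-like kinase of G1 and of the stress response, which is induced by p53 and also by growth factors. It measured 11.6 and 11.02 CPM in WT replicates 1 and 2 and 50.3, 26.9 and 57.2 CPM in dKO replicates 1, 2 and 3, from 275 to 1544 counts per library. All dKO libraries were well above WT, with dKO replicate 2 the lowest of them. Plk2 averaged 44.8 ± 15.9 CPM in dKO (SD, n = 3) against a WT average of 11.3 ± 0.378 CPM (SD, n = 2). The log2 fold change was 1.99 (SE 0.44, 95% interval 0.96 to 3.02), with an unadjusted p of 0.00218 and an adjusted p of 0.430 by edgeR, and 58 of 13696 genes had a smaller p. DESeq2 gave 1.99 with an adjusted p of 0.00315. With each library left out in turn the edgeR value lay between 1.78 and 2.26, and Plk2 did not pass the adjusted threshold in any of these 5 fits. In TPM, Plk2 stood at 7.11 and 6.05 in WT and at 34.6, 18.8 and 35.0 in dKO.

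Gadd45a and Gadd45b encode small related proteins that bind the replication clamp and stress kinases. Gadd45a is a direct p53 target, whereas Gadd45b is better known as a target of NF-kappaB and TGF-beta. Gadd45a measured 9.39 and 3.77 CPM in WT and 8.88, 8.70 and 16.9 CPM in dKO, so WT replicate 1 lay among the dKO libraries. Gadd45b measured 7.41 and 15.6 CPM in WT and 10.4, 35.6 and 13.9 CPM in dKO, with dKO replicate 2 far above the rest.

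The log2 fold changes were 0.81 for Gadd45a (SE 0.72, 95% interval -0.86 to 2.47, edgeR adjusted p = 0.783) and 0.79 for Gadd45b (SE 0.68, 95% interval -0.77 to 2.36, edgeR adjusted p = 0.766). These near-equal values rest on different libraries. That of Gadd45b was 0.08 without dKO replicate 2 and that of Gadd45a 0.42 without dKO replicate 3. Leaving out WT replicate 2 gave 0.29 for Gadd45a and 1.42 for Gadd45b, and leaving out WT replicate 1 gave 1.601 and 0.34. In TPM the groups of Gadd45a did not overlap, at 14.4 and 4.83 in WT and 19.1, 15.9 and 31.8 in dKO. Exons of Gadd45a overlap the opposite-strand gene E230016M11Rik, which had 7 to 154 counts per library, and reads of the pair cannot be separated without strand.

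Bbc3 encodes Puma, the death protein of the BH3-only family through which p53 kills blood cells. It measured 3.34 and 1.08 CPM in WT and 1.92, 4.23 and 9.004 CPM in dKO. The groups overlapped and dKO replicate 3 was the highest. For Bbc3 the log2 fold change was 1.19 (SE 1.18, 95% interval -1.56 to 3.94, edgeR adjusted p = 0.819), and it ranged from 0.47 without dKO replicate 3 to 2.20 without WT replicate 1.

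Sesn2 encodes sestrin 2, a stress protein that restrains mTORC1 and is induced by p53 and by Atf4. It measured 4.90 and 0.761 CPM in WT and 7.85, 0 and 5.30 CPM in dKO. Its log2 fold change of 0.63 (95% interval -3.68 to 4.94, edgeR adjusted p = 0.960) holds almost no information on direction. The count of 0 in dKO replicate 2 allows up to 0.187 CPM (3 counts, counting error only, on the unscaled library total). Of 2188 genes with a mean count within 2-fold of that of Sesn2 in the other libraries, 15.4% had 0 counts in that library.

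Zmat3, a zinc finger RNA-binding protein and p53 target, was the lowest member. The WT libraries had 12 and 57 counts of it (0.456 and 2.28 CPM), and the dKO libraries had 20, 0 and 58 (0.737, 0 and 2.15 CPM). Its log2 fold change was -0.50 (95% interval -5.25 to 4.25, edgeR adjusted p = 0.973). Of 1835 genes of a similar mean count, 45.5% were at 0 in dKO replicate 2. No difference in Zmat3 or Sesn2 was detectable within these intervals. Sesn2 had 129 and 19 counts in the WT libraries, whose totals were similar.

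**Figure D3:**
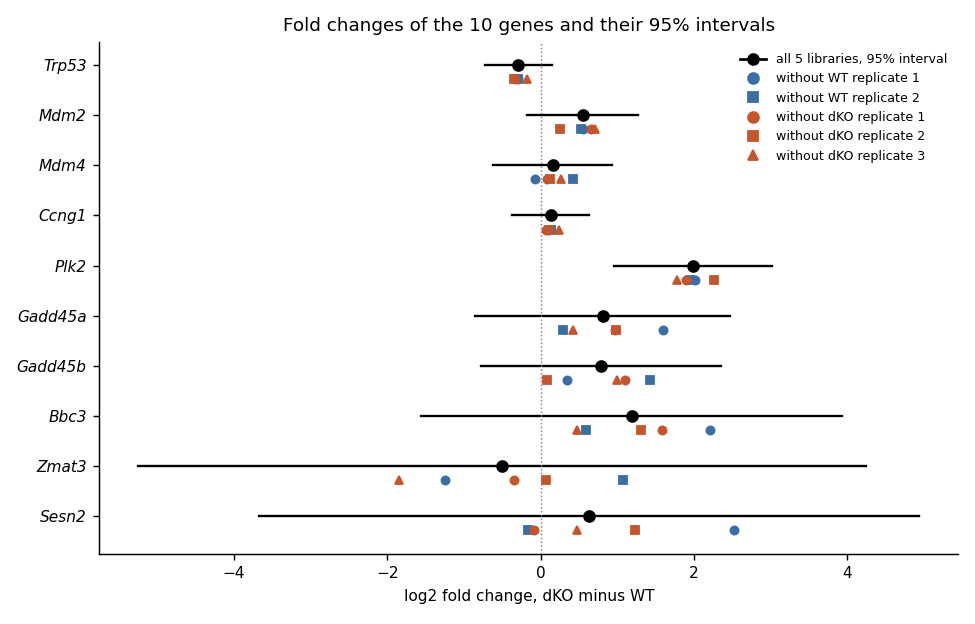
Log2 fold change (dKO minus WT, horizontal axis) of each gene with its 95% interval from edgeR in black, and below it the value with each library left out in turn. The interval of Plk2, 0.96 to 3.02, is the one that lies clear of 0, and Mdm4, Zmat3 and Sesn2 change sign when a library is left out. The intervals are not adjusted for the number of genes, and the edgeR adjusted p of Plk2 was 0.430. At an unadjusted edgeR p under 0.05, 4.94% of all genes were higher and 5.19% lower.

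Per transcript length, Trp53 was by far the most abundant member, with a mean over the 5 libraries of 337 TPM and a lowest library of 269 TPM. It was followed by Ccng1 at 60.4 and Mdm2 at 45.1 TPM, then by Gadd45b at 23.7, Mdm4 at 22.1, Plk2 at 20.3 and Gadd45a at 17.2 TPM. Bbc3 at 4.48, Sesn2 at 2.14 and Zmat3 at 0.576 TPM came last. Only Trp53 stood apart from its neighbour in this order, since the library ranges of every other neighbouring pair overlapped. Plk2 ranked below Mdm4 in both WT libraries, at 7.11 and 6.05 against 15.1 and 24.3 TPM, and above it in dKO replicates 1 and 3.

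As a group, 8 of the 10 members had a log2 fold change above 0, with a median of 0.59, where 52.2% of all genes tested were above 0 with a median of 0.04. The members' median lies between the values of Mdm2 and Sesn2, and the interval of Sesn2 ran from -3.68 to 4.94. With 1 library left out, the members' median was lower, from 0.19 to 0.48. In CPM, 2 members (Mdm2 and Plk2) lay above WT in every dKO library, where 13.7% of all genes did, and 1 (Trp53) lay below, where 15.6% did. In TPM 3 members lay above (Mdm2, Plk2 and Gadd45a) and 0 below, where 18.6% and 8.81% of all genes did. With 10 members all of these counts are small, and those without overlap in CPM are near the shares of all genes. The members were chosen with earlier results of these data known, so the counts and the median are a description only. In bulk RNA, fewer cells of a type and less RNA per cell cannot be told apart for any of the members.

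The wider pathway was described with 5 lists of p53 regulators and targets, chosen like the members with earlier results of these data known. They hold 65 tested genes. EdgeR called 0 of them in either direction, as it did of all genes. At an unadjusted p under 0.05, 5 were higher (Cdkn1a, Btg2, Trp53inp2, Crebbp and Ep300) and 4 lower (Gtse1, Siva1, Tigar and Rps27l), shares near the 4.94% and 5.19% of all genes. DESeq2 called 3 higher, Cdkn1a, Btg2 and Trp53inp2, and 0 lower, where 1.18% and 0.672% of all genes were called. Cdkn1a was also called higher by edgeR without a filter on low counts (adjusted p = 0.0420) and by limma on log2 TPM plus 1 (adjusted p = 0.0468).

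Arrest targets had the highest median of the 5 lists, at 0.97 over 10 tested genes, 7 of them above 0. This median is loose, since a gene at the middle of the list had an SE of 2.08. It was 0.56 to 1.66 with 1 library left out and 0.25 with the replicate number as a block. Cdkn1a, the cyclin-dependent kinase inhibitor p21, had 37.5 and 40.1 CPM in WT and 111, 173 and 160 CPM in dKO (log2 fold change 1.93, edgeR adjusted p = 0.247, DESeq2 adjusted p = 1.53e-07). Btg2, an antiproliferative factor, had 66.0 and 77.8 CPM in WT and 163, 281 and 359 CPM in dKO (log2 fold change 1.90, edgeR adjusted p = 0.399). Like Plk2, both lay above WT in every dKO library, as did 13.7% of all genes tested. Among the dKO libraries, replicate 2 was the lowest for Plk2 but the highest for Cdkn1a, and replicate 3 was the highest for Btg2. Trp53inp2 is counted in this list and among the 7 genes above 0, at a log2 fold change of 3.40, although it is an autophagy regulator. It was near the detection limit in WT, at 0.494 and 0.801 CPM, and had 7.11, 5.02 and 8.52 CPM in dKO. Gtse1, a protein of the G2 and mitotic phases that restrains p53, went the other way, at 28.5 and 28.6 CPM in WT and 13.7, 9.91 and 1.85 CPM in dKO (log2 fold change -1.75, edgeR adjusted p = 0.491).

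Death targets had no common direction, with 7 of 15 tested genes above 0 and a median of -0.08. Siva1, a proapoptotic p53 target, had the smallest p, at 113 and 118 CPM in WT and 60.0, 58.9 and 93.2 CPM in dKO (log2 fold change -0.71, edgeR adjusted p = 0.467). Pmaip1, which encodes the BH3-only protein Noxa, had a log2 fold change of 1.36, the death receptor Tnfrsf10b 1.12 and Trp53inp1 0.85, with edgeR adjusted p of 0.622, 0.700 and 0.619. The list's median was 0.28 without dKO replicate 2.

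Targets of repair, nucleotide supply and metabolism had 5 of 12 tested genes above 0 and a median of -0.17. Tigar, which lowers glycolytic flux and is listed in the files as 9630033F20Rik, had 13.2 and 33.3 CPM in WT and 6.30, 4.71 and 6.37 CPM in dKO (log2 fold change -2.002, edgeR adjusted p = 0.434). Rps27l, a ribosomal protein paralog and p53 target, had 357 and 559 CPM in WT and 275, 221 and 310 CPM in dKO (log2 fold change -0.77, edgeR adjusted p = 0.436). The epoxide hydrolase Ephx1 had a log2 fold change of 1.93 and the electron carrier Fdxr -0.91, with edgeR adjusted p of 0.501 and 0.586. In every dKO library 4 arrest targets lay above WT and 2 below, as did 2 and 1 death targets, 1 (Ephx1) and 3 (Tigar, Rps27l and Fdxr) repair and metabolic targets, 4 and 4 regulators and 1 and 0 feedback and stem cell genes, where 13.7% and 15.6% of all genes did.

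Feedback and stem cell genes had 5 of 7 above 0 and a median of 0.11. The growth suppressor Ndn, a p53 target in stem cells, had a log2 fold change of 0.80, Pml 0.27, the ligase Rchy1 0.20 and the phosphatase Ppm1d 0.11, with edgeR adjusted p from 0.646 to 0.965. Regulators of p53 had 11 of 21 above 0 and a median of 0.08. The acetylases Crebbp and Ep300 had log2 fold changes of 0.91 and 1.51, the damage kinase Atr 0.77 and the checkpoint kinase Chek2 -1.07, with edgeR adjusted p of 0.441, 0.471, 0.526 and 0.528. Cdkn2a, which encodes the Mdm2 inhibitor Arf, and the p53 relatives Trp63 and Trp73 had 0 counts in every library, which allows up to 0.107 to 0.187 CPM per library.

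**Figure D4:**
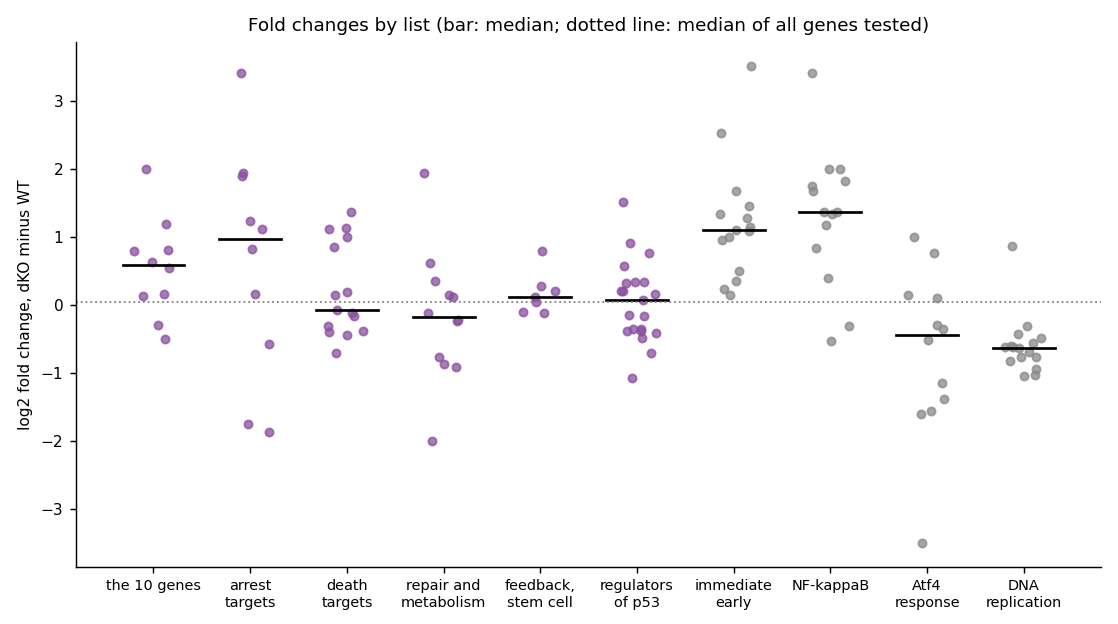
Log2 fold change (dKO minus WT, vertical axis) of each tested gene, with 1 point per gene, for the 10 genes, the 5 other p53 lists (purple) and 4 lists of other programmes (grey); bars are list medians and the dotted line is the median of all genes, 0.04. Death and repair targets spread on both sides of 0, with medians of -0.08 and -0.17, whereas the immediate early and NF-kappaB lists have medians of 1.09 and 1.36. All lists were chosen with earlier results of these data known.

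Lists of 4 other programmes had summed CPM that did not overlap between WT and dKO in the same libraries. Their part in the values of Plk2, Cdkn1a and Btg2 was not tested. EdgeR called 0 of their genes at the adjusted threshold, as of all genes tested, and limma-voom also called 0 of all genes. The lists were chosen with earlier results of these data known, so their counts are a description and not a test. Of all genes, 52.2% had a log2 fold change above 0. At an unadjusted p under 0.05, 4.94% of all genes were higher and 5.19% lower. DESeq2 called 8 immediate early and 6 NF-kappaB genes higher, and 5 DNA replication and 2 Atf4 response genes lower. Over all genes it called 1.18% higher and 0.672% lower. Immediate early genes summed to 4442 and 3540 CPM in WT and to between 7026 and 9283 CPM in dKO, with 15 of 15 tested members above 0 and 10 at an unadjusted p under 0.05. NF-kappaB genes summed to 686 and 603 CPM in WT and to between 1052 and 1312 CPM in dKO, with 12 of 14 above 0. DNA replication genes summed to 6302 and 6423 CPM in WT and to between 3707 and 4641 CPM in dKO, with 15 of 16 below 0. Genes of the Atf4 response, to which Sesn2 also belongs, summed to 1453 and 1770 CPM in WT and to between 1043 and 1286 CPM in dKO, with 8 of 12 below 0, among them Psat1 and Asns at log2 fold changes of -1.15 and -1.60 (edgeR adjusted p of 0.430 for both). At an unadjusted p under 0.05, 3 of these genes were lower, the third being Mthfd2, and 1 was higher, Ddit3 at a log2 fold change of 0.77.

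Genes listed as markers of other cells had counts in these sorts, which does not show that those cells were present. The part of these genes in the members' values was not tested either. Their lists too were chosen with earlier results of these data known. For reference, 52.2% of all genes tested had a log2 fold change above 0. Granulocyte progenitor genes summed to 6960 and 43630 CPM in WT replicates 1 and 2, with dKO sums of 11829 to 16620 CPM and 0 of 7 members above 0. Trp53, Mdm2, Ccng1 and Plk2 were nearly equal in those 2 WT libraries, whereas Gadd45a, Bbc3 and Sesn2 were lower and Mdm4, Gadd45b and Zmat3 higher in WT replicate 2. Mast cell and basophil genes had 4 of 5 members above 0, with sums of 267 and 447 CPM in WT and 444 to 1127 CPM in dKO. Dendritic genes had 4 of 4 above 0 (144 to 197 and 263 to 655 CPM), megakaryocyte genes 5 of 5 (60.6 to 72.2 and 100 to 126 CPM), erythroid genes 4 of 7 (119 to 120 and 168 to 205 CPM, and 112 to 113 and 107 to 143 CPM without Car1), monocyte genes 5 of 5 (237 to 800 and 575 to 802 CPM) and B cell genes 5 of 6 (109 to 162 and 122 to 326 CPM), the WT range first. T and NK cell genes had 1 of 2 tested members above 0 (705 to 1881 and 562 to 688 CPM, nearly all from Nkg7), with Cd3e at 0 in every library. Stroma and endothelium had 1 of 3 (96.1 to 125 and 68.6 to 137 CPM, mostly Pecam1), with Lepr at 0 in every library. Stem cell markers had 12 of 14 above 0.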

How the data were processed

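Per the labels' protocols, each Smart-seq2 library was made from the RNA of 6K sorted cells. Smart-seq2 covers whole transcripts and, as usually run, keeps no strand. The authors deposited raw counts per gene and, in separate files, TPM. TopHat2 2.1.1, HTSeq, RSEM 1.2.31, DESeq2, Trimmomatic and FastQC 0.11.5 are listed, with the build mm9, in the submitters' processing notes, without saying which made the deposited counts or TPM. Of 33924 entries per file 30 name no gene, with 0.216% to 0.269% of counts, and were left out.

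The members and gene lists were chosen with earlier results of these data known. Counts of all 5 libraries were fitted with edgeR 4.0.16 in R 4.3.3 (TMM, filterByExpr, robust quasi-likelihood, no covariate), with Benjamini-Hochberg adjustment over all 13696 genes tested and a threshold of 0.05. Alternatives were DESeq2 1.42.0, limma 3.58.1 (voom with quality weights, or log2 TPM plus 1 or 0.1), RLE and upper quartile scaling, other filters on low counts, a block for the replicate number, and leaving out each library in turn.

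Named genes are the members, up to 4 genes with the smallest p per p53 list, up to 3 per list of other programmes or markers, Lrp5, Lrp6 and 3 neighbours each of Trp53 and Mdm2; genes that give a marker at 0, copies of members and genes counted by an unadjusted p were added. Of the list entries 1 had no match. Sequence copies and overlapping exons come from GENCODE M21.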

Additional observations from a re-analysis of the deposited data

How the results depend on the processing

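No member passed the adjusted threshold under any alternative except Plk2 with DESeq2, which made 1 call among the members and called 162 genes higher and 92 lower in all. Over all genes, the count without a filter on low counts was 5 higher and 3 lower. With limma it was 7 and 3 on log2 TPM plus 1 and 2 higher on log2 TPM plus 0.1. Leaving out 1 library gave 0 to 2 genes higher and 0 to 3 lower. In log2 fold change Plk2 lay between 1.71 and 2.26, Mdm2 between 0.25 and 0.83 and Ccng1 between 0.06 and 0.31 under the 14 alternatives.

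Trp53 was 0.0295 with limma on log2 TPM plus 1 and 0.0295 with log2 TPM plus 0.1. Sesn2 was -0.024 on log2 TPM plus 0.1. With 1 library left out, Mdm4 ranged from -0.080 to 0.43, Zmat3 from -1.85 to 1.07 and Sesn2 from -0.16 to 2.52. Between 3 and 4 members then lay above WT without overlap and between 1 and 2 below; fewer libraries make an overlap less likely.

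The replicate number as a block gave 1 gene higher over all genes, 0 members called, a median of 0.25 for the arrest targets and -1.67 for Sesn2. Correlations between libraries of the same number, in deviations from the group means, were 0.03 for number 1 and 0.05 for number 2. With 2 WT libraries those deviations mirror each other, so these correlations cannot show or exclude a pairing. The numbers were not taken to pair the libraries.

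The median log2 fold change of the members was 0.33 with limma-voom and 0.19 to 0.48 with 1 library left out. That of the arrest targets was 0.65 with limma-voom, 1.25 with at least 5 CPM in 2 libraries and 0.56 to 1.66 with 1 library left out. Regulators had 0.23 and 0.25 and feedback and stem cell genes 0.31 and 0.33 on log2 TPM plus 1 and plus 0.1, where the median of all genes was 0.15. With 1 library left out, regulators ranged from -0.10 to 0.25, death targets from -0.050 to 0.28 and feedback and stem cell genes from -0.018 to 0.21. For the shifts not explained by fewer genes or libraries, the cause was not tested. Without WT replicate 1 or 2, the lone WT library is assumed to vary like the others. Bbc3 and Zmat3 have no value with at least 5 CPM in 2 libraries, and Zmat3 none on TPM. Outside dKO replicate 2, the shallowest library, Sesn2 had 19 to 213 counts and Zmat3 12 to 58. Of the 65 genes of the wider p53 lists, Cdkn1a was called without a filter on low counts and on log2 TPM plus 1, and DESeq2 called 3; the other 11 alternatives called 0.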
